A study of Mus musculus with 6 samples.

Results

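The genes described here are 10 mouse genes of mitophagy, the removal of damaged or surplus mitochondria by autophagy. They were chosen by name from 35127 genes in the files. For description they were divided here, by known role, into a receptor group of 6 (Bnip3, Bnip3l, Fundc1, Fundc2, Bcl2l13 and Fkbp8) and a PINK1-linked group of 4 (Pink1, Optn, Phb2 and Pgam5). The place of Optn, Phb2 and Pgam5 is a choice, since these proteins also act outside the PINK1 route, and the group counts, medians and sums below rest on it. All 10 passed the filter on low counts, which left 14359 genes for testing. RNA was sequenced from astrocytes of Mus musculus in 6 libraries: 3 tumour libraries of astrocytes isolated from brain allografts of SCLC (small cell lung cancer, which has neuroendocrine features and frequently forms brain metastases), and 3 sham libraries of astrocytes from brains that received a sham injection. The sources used here do not state strain, age, sex, time after injection, how astrocytes were isolated or how many animals stand behind each library. Every p-value below thus reflects library-to-library spread, and that spread may be technical.

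In mitophagy a mitochondrion is tied to the growing autophagosome membrane through small proteins of the LC3 and GABARAP family. Receptors such as BNIP3, its paralogue NIX (encoded by Bnip3l), FUNDC1, BCL2L13 and FKBP8 sit in the outer mitochondrial membrane and bind these proteins directly, and Bnip3 is a well-known target gene of the hypoxia-inducible factors (HIF). In the other route the kinase PINK1 accumulates on mitochondria that have lost their membrane potential and brings about their coating with ubiquitin, after which adaptors such as optineurin bind the ubiquitin chains; PINK1 is controlled mainly by import and degradation of the protein, so that its transcript level is no measure of its activity.

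Between 22133723 and 25800897 estimated reads were deposited per library, and the 10 genes had between 354 reads (Optn in sham library 3) and 11009 reads (Bnip3 in tumour library 3). Sham library 3 stood apart: its root mean square log2 difference from sham libraries 1 and 2 over all tested genes was 0.802 and 0.795, against 0.351 between sham libraries 1 and 2, 0.322 to 0.352 among the tumour libraries and 0.734 to 0.749 between tumour and sham libraries. All 10 astrocyte markers examined had reads in every library. Their summed level was 4723 to 4835 CPM (reads scaled to library size) in the tumour libraries, against 6517, 6580 and 3270 CPM in sham libraries 1 to 3. Atp1b2 led this sum, with 1586 to 1597 CPM in the tumour libraries, against 1925, 1978 and 584 CPM in sham libraries 1 to 3. The markers did not move together. Aldh1l1 had 339 to 352 CPM in the tumour libraries, against 228, 231 and 281 CPM in sham libraries 1 to 3. Gja1 had 530 to 553 CPM, against 1213, 1202 and 707 CPM. Markers of fibroblasts and meninges, led by collagen genes, were also abundant, with a sum of 4322 to 4372 CPM in the tumour libraries and 4596, 4616 and 7203 CPM in sham libraries 1 to 3. The sums of 12 SCLC and neuroendocrine markers were 35 to 38.1 CPM in the tumour libraries, with 48 to 51.4 CPM among sham libraries. Single markers near the floor went either way. Chga was at 0 in all 3 tumour libraries, whereas Epcam had 0.237 to 0.331 CPM there and 0 in all 3 sham libraries. The sums of microglial and macrophage markers were 132 to 135 CPM in the tumour libraries, with 91.9 to 122 CPM among sham libraries. Nearly all of each sum was Tmem119 (86 to 87.7 CPM in tumour and 79.6 to 110 in sham libraries) and Cd68 (41.3 to 45.8 and 5.07 to 10.2 CPM). The other markers of this list had at most 3.99 CPM, and only 6 of the 10 passed the filter. In these bulk samples fewer cells of a type and less RNA per cell cannot be told apart.

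Among the 10 genes the largest changes were in Bnip3 and its paralogue. Bnip3 rose 5.87-fold and Bnip3l 1.91-fold in the tumour libraries, Fkbp8 fell to 0.748 of its sham level, and no PINK1-linked gene passed the test. Of the 6 receptor genes 2 were higher and 1 was lower, and of the 4 PINK1-linked genes 0 were higher and 0 were lower (quasi-likelihood test of edgeR, p adjusted by Benjamini-Hochberg over 14359 genes, threshold 0.05). Over all tested genes 10.5% were called higher and 10.4% lower, so calls as such were common in this comparison. The median log2 fold change was -0.10 over the receptor genes and 0.17 over the PINK1-linked genes, beside -0.02 over all tested genes. Every tumour value lay above every sham value for 4 of the 10 genes (22.2% of all tested genes) and below for 2 (21.9% of all tested genes), together 6 of 10 beside 44.1% of all tested genes.

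The test counts the 6 libraries as separate samples. The tumour libraries lay close together, as did sham libraries 1 and 2, and whether close libraries came from separate animals is not stated. When the 3 tumour libraries were summed and sham libraries 1 and 2 were summed, leaving 1 tumour and 2 sham values, edgeR called 0 of 15684 genes, with 573 at an unadjusted p below 0.05. With 1 tumour value and sham library 3 as 1 of the 2 sham values, this fit had little power to call any gene, so its lack of calls says nothing about the stability of the members' calls. The log2 fold changes were then 2.57 for Bnip3 (adjusted p = 0.645), 0.94 for Bnip3l and -0.43 for Fkbp8 (both with an edgeR adjusted p of 0.999).

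**Figure D1:**
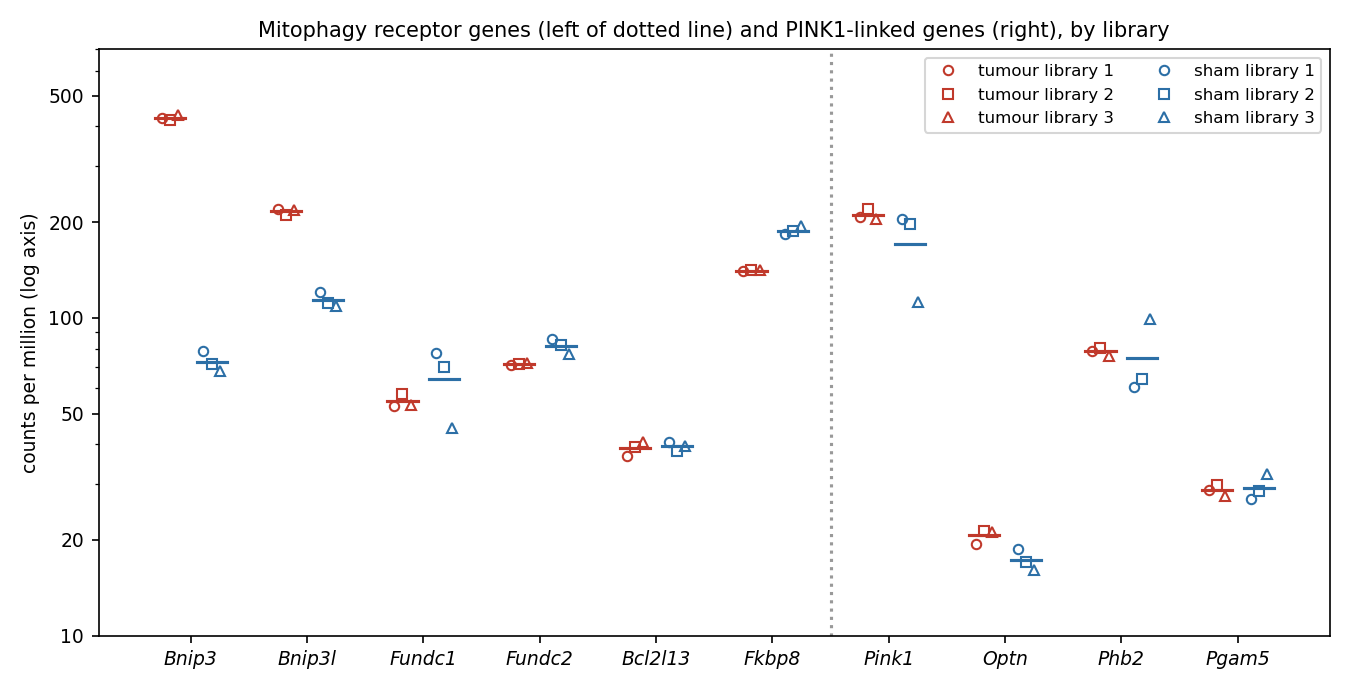
Level of each gene in each library in CPM on a log axis, scaled by TMM library sizes, with tumour libraries left of sham libraries and a bar at each group's mean of 3. Bnip3 stood at 420 to 435 CPM in the tumour libraries, with 68.1 to 78.4 CPM among sham libraries, while Pink1, Fundc1 and Phb2 differed mainly between sham library 3 and the other sham libraries.

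Bnip3, the receptor that gave the family its name, lies on the minus strand of chromosome 7 from 138890836 to 138909519 (GRCm38, GENCODE M21). The table of RefSeq promoters (GRCm38.p6, 250 bases before to 50 bases from the annotated start) held 8 of the 10 genes; Bnip3l and Pgam5 were not among them. The promoters of the gene with the largest change, of the gene that fell and of Pink1 are shown so that the core letters bound by HIF, ACGTG or GCGTG on either strand (CACGT or CACGC when read on the other), can be seen in place. Capitals mark these letters, and each sequence runs 5′ to 3′ on the strand of its gene.
Bnip3, chr7:138909457-138909756, minus strand: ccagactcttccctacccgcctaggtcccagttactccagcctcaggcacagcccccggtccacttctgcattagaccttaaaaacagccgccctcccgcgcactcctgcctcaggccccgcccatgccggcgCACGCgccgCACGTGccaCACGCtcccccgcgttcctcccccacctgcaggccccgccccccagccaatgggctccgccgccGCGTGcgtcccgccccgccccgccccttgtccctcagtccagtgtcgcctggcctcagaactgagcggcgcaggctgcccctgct
Fkbp8, chr8:70527493-70527792, plus strand: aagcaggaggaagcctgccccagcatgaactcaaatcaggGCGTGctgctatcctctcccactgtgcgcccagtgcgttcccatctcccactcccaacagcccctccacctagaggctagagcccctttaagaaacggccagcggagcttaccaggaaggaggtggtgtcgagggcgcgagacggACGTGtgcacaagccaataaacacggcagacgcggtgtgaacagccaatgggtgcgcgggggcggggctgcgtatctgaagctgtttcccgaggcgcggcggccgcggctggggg
Pink1, chr4:138326247-138326546, minus strand: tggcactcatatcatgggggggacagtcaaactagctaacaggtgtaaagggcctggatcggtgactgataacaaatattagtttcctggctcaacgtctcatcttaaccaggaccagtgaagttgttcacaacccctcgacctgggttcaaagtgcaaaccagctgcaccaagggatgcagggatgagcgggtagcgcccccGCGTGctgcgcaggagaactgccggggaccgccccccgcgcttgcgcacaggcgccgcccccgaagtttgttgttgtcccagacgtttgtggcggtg

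The Bnip3 window held 5 matches, which begin 117, 108, 107, 99 and 35 bases before the annotated start; the pair at 108 and 107 is the palindrome CACGTG read on both strands and so overlaps. At least 1 match was present in 43.8% of 32851 promoters of the same length and at least 5 in 1.66%. The Bnip3 window has 71.7% G and C, and the share of promoters was not matched for base composition. Among the other members, Optn had 3 matches, Fkbp8 had 2, Pink1, Fundc2, Bcl2l13 and Phb2 had 1 each and Fundc1 had 0. A match is a description of letters, not evidence of a bound site.

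Bnip3 had 425, 420 and 435 CPM in tumour libraries 1 to 3, against 78.4, 71.4 and 68.1 CPM in sham libraries 1 to 3. All 3 tumour values lay far above the sham values, and sham library 3 was close to the other sham libraries for this gene. The log2 fold change was 2.55 (SE 0.08, edgeR adjusted p = 6.45e-05), which ranked 78 among the 14359 tested genes in order of log2 fold change. Leaving out any 1 of the 6 libraries gave log2 fold changes of 2.51 to 2.61 with an edgeR adjusted p of at most 0.00204. The coding transcript Bnip3-201 carried 95.7% to 98.0% of the gene's TPM (the length-scaled transcript level) in the tumour libraries and 91.2% to 99.4% in the sham libraries.

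Bnip3l encodes NIX, the paralogue known for clearing mitochondria from maturing red blood cells. It lies on the minus strand of chromosome 14 from 66985239 to 67008877. Its level was 220, 211 and 218 CPM in tumour libraries 1 to 3, against 121, 111 and 109 CPM in sham libraries 1 to 3. The groups did not overlap and the sham libraries lay close together. The log2 fold change was 0.93 (SE 0.07, edgeR adjusted p = 0.000746), and it was 0.90 to 0.97 with 1 library left out, with an edgeR adjusted p of at most 0.0119.

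Short transcripts annotated without a coding sequence took up much of the TPM of Bnip3l but few of its reads. Of 5314 reads in tumour library 1, 4379 were assigned to the coding Bnip3l-201, and of 2741 reads in sham library 1 it had 2404.9. On the TPM scale Bnip3l-201 stood at 102, 97.1 and 101 TPM in tumour libraries 1 to 3, against 56.4, 51.2 and 52.7 TPM in sham libraries 1 to 3, which was 38.6% to 39.9% of the gene's TPM in the tumour libraries and 41.6% to 50% in the sham libraries. The processed transcript Bnip3l-205 made up 39.5% to 43.0% in the tumour libraries and 33.9% to 35.2% in the sham libraries. How Salmon divides reads between such overlapping transcripts is an estimate. With counts from coding transcripts only, the log2 fold change of Bnip3l was 0.87 (SE 0.07, edgeR adjusted p = 0.0012). A pseudogene of Bnip3l in the files, Bnip3l-ps, had 1 to 3 reads in the tumour libraries and 1 to 4 in the sham libraries.

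FUNDC1 is an outer membrane receptor known for mitophagy under low oxygen, which is controlled chiefly through phosphorylation of the protein. Fundc1 had 52.9, 57.7 and 53.2 CPM in tumour libraries 1 to 3, against 77.4, 69.9 and 45 CPM in sham libraries 1 to 3. The tumour values lay between sham library 3 and the other sham libraries, so the groups overlapped. The log2 fold change was -0.23 (SE 0.19, edgeR adjusted p = 0.433). Without sham library 3 it was -0.43 and was called lower (edgeR adjusted p = 2.96e-08), in a fit that called 4250 genes higher and 4179 lower.

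Fundc2, the paralogue of Fundc1, had 71.3, 71.6 and 72.2 CPM in tumour libraries 1 to 3, against 85.9, 81.9 and 76.9 CPM in sham libraries 1 to 3. The groups did not overlap, but the log2 fold change of -0.19 (SE 0.06) missed the threshold (edgeR adjusted p = 0.0787). It passed only without sham library 3, at -0.23 (edgeR adjusted p = 0.000106). Bcl2l13, which encodes a receptor regarded as the mammalian counterpart of yeast Atg32, had 36.7 to 40.6 CPM in the tumour libraries, with 38.2 to 40.7 CPM among sham libraries. The groups overlapped, and the log2 fold change was -0.02 (SE 0.07; edgeR adjusted p = 0.836).

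Fkbp8 encodes FKBP38, an outer membrane immunophilin that binds LC3A and also anchors BCL2 at mitochondria. It lies on the plus strand of chromosome 8 from 70527724 to 70535328. Its level was 140, 141 and 141 CPM in tumour libraries 1 to 3, against 183, 187 and 194 CPM in sham libraries 1 to 3. The groups did not overlap and both were narrow, and the log2 fold change was -0.42 (SE 0.06, edgeR adjusted p = 0.00624). With 1 library left out it was -0.45 to -0.40, and the largest edgeR adjusted p of these fits was 0.0499, just inside the threshold. The gene has 11 annotated transcripts, and the coding Fkbp8-201 carried 47.8% to 51.4% of the TPM in the tumour libraries and 46.4% to 51.1% in the sham libraries.

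Pink1, the gene of the kinase that marks depolarised mitochondria, lies on the minus strand of chromosome 4 from 138313409 to 138326307. It had 207, 220 and 205 CPM in tumour libraries 1 to 3, against 204, 198 and 112 CPM in sham libraries 1 to 3. The tumour values were close to those of sham libraries 1 and 2, and sham library 3 alone was low. The log2 fold change was 0.30 (SE 0.22, edgeR adjusted p = 0.386); it was 0.06 without sham library 3 and up to 0.43 without another library, and it was not called in any of the 16 alternatives. Its coding transcript Pink1-201 carried 96.4% to 98.2% of the TPM in the tumour libraries and 97.9% to 98.7% in the sham libraries.

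Optn, which encodes the ubiquitin-binding adaptor optineurin, was the least abundant of the 10 genes. It had 19.4, 21.4 and 21.2 CPM in tumour libraries 1 to 3, against 18.8, 17 and 16.1 CPM in sham libraries 1 to 3. The groups did not overlap, but the gap between them was small and the log2 fold change of 0.26 (SE 0.09) missed the threshold (edgeR adjusted p = 0.101), as it did in all 16 alternatives.

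Phb2 encodes prohibitin 2, an inner membrane protein that binds LC3 once the outer membrane has ruptured. It had 78.7, 80.5 and 75.9 CPM in tumour libraries 1 to 3, against 60.5, 64.4 and 99 CPM in sham libraries 1 to 3. The tumour values lay between those of sham library 3 and of the other sham libraries, at 0.07 on the log2 scale (SE 0.19, edgeR adjusted p = 0.820). Without sham library 3 it was called higher, at 0.33 (edgeR adjusted p = 1.3e-06), and without sham library 1 or 2 its sign turned, at -0.07 and -0.03. Pgam5, the gene of a mitochondrial phosphatase that acts on FUNDC1 and is cut by PARL, the protease that also cuts PINK1, had 27.5 to 29.8 CPM in the tumour libraries, with 27 to 32.2 CPM among sham libraries. These values overlapped, at -0.02 on the log2 scale (SE 0.09, edgeR adjusted p = 0.868).

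Among the sham libraries the 10 genes thus fell into a narrow and a wide set. The coefficient of variation over the 3 sham libraries was 26.4% for Fundc1, 30.1% for Pink1 and 28.4% for Phb2, and 3.12% to 9.18% for the other 7 genes, whereas over the tumour libraries it was 0.405% to 5.47% for all 10. Sham library 3 differed from the mean of sham libraries 1 and 2 by -0.84 for Pink1, -0.71 for Fundc1 and 0.67 for Phb2 on the log2 scale, and by -0.14 for Bnip3 and -0.09 for Bnip3l. The astrocyte marker sum was lower and the fibroblast marker sum higher in that library, as given above. The higher fibroblast sum lay in collagen genes such as Col1a2 (3825 CPM, against 2048 and 2092), whereas Dcn was lower (52.5 CPM, against 132 and 123). The median log2 difference of sham library 3 from the other sham libraries was -0.27 over the fibroblast list and -0.86 over the astrocyte list. It was largest over the oligodendrocyte lineage list, at 1.36. There Olig1 was higher (171 CPM, against 51.8 and 46.8) and Pdgfra lower (127 CPM, against 191 and 181). The endothelial and mural list had 0.57, the neuron list 0.34, the microglial and macrophage list -0.35 and the SCLC list -0.44. The part of these markers in the differences of the 10 genes was not tested.

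**Figure D2:**
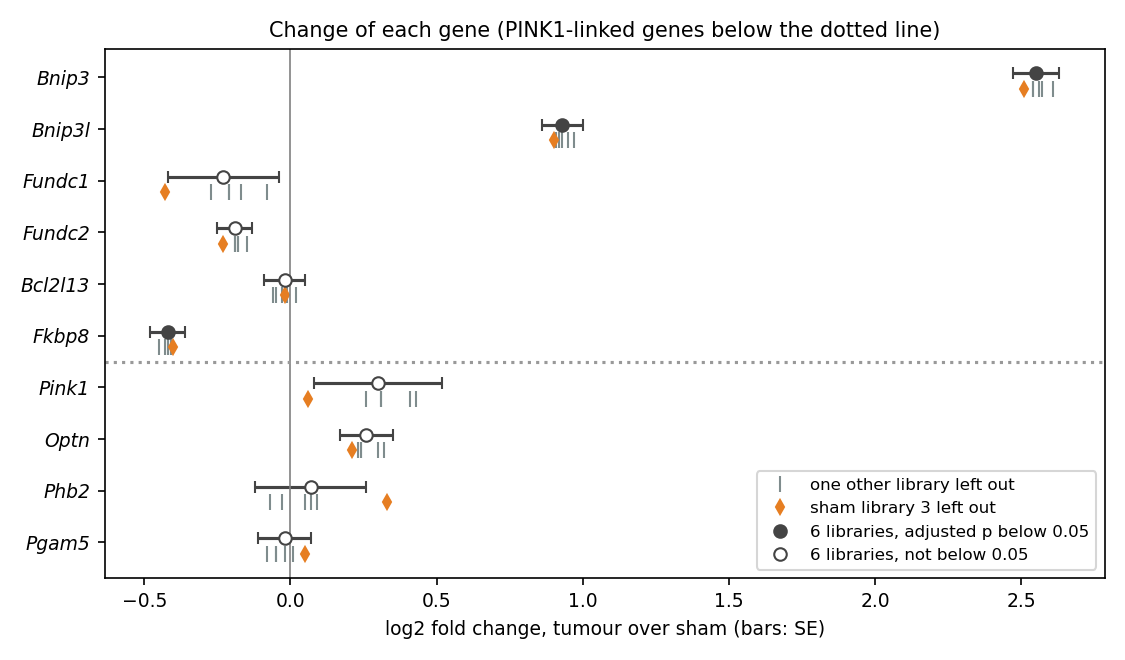
Log2 fold change of each gene, tumour over sham, with its SE (circles, filled where the edgeR adjusted p was below 0.05), and the same value with each library left out (marks under each circle). Bnip3 at 2.55, Bnip3l at 0.93 and Fkbp8 at -0.42 hardly moved, while Fundc1, Pink1 and Phb2 moved most when sham library 3 was left out.

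To compare levels between genes, the deposited TPM were summed over the transcripts of each gene, which puts the genes on a scale per length. Bnip3 was the most abundant of the 10 in the tumour libraries at 519 ± 16.5 TPM (SD, n = 3), ahead of Bnip3l at 256 ± 11.2, Pink1 at 127 ± 5.22, Fkbp8 at 126 ± 2.38, Phb2 at 89.7 ± 1.43, Fundc2 at 66.6 ± 1.75, Fundc1 at 62.2 ± 2.08, Pgam5 at 24.3 ± 0.87, Bcl2l13 at 20.9 ± 6.07 and Optn at 10.4 ± 0.477 TPM. In that order the values of Pink1 and Fkbp8 overlapped, as did those of Pgam5 and Bcl2l13. The place of Bnip3l rests on its short transcripts without a coding sequence. Its coding Bnip3l-201 alone stood at 97.1 to 102 TPM in the tumour libraries, below Pink1-201 at 119 to 127 TPM. The place and SD of Bcl2l13 rest on a transcript of 349 bases, Bcl2l13-203. With 11.9 to 30.9 reads it made up 50.5% to 67.6% of the gene's TPM in the tumour libraries. Bcl2l13-201 alone stood at 8.18 to 8.81 TPM there, below Optn at 9.89 to 10.8 TPM.

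In the sham libraries Fkbp8 came first at 164 ± 12.4 TPM (SD, n = 3), and Bnip3 followed Bnip3l and Pink1 at 86.3 ± 5.18 TPM. Bnip3l stood at 119 ± 6.95 and Pink1 at 101 ± 29.7 TPM, and below Bnip3 came Phb2 at 84.3 ± 23.5, Fundc1 at 71.7 ± 17.8, Fundc2 at 70.8 ± 1.62, Pgam5 at 24 ± 3.03, Bcl2l13 at 23.9 ± 2.98 and Optn at 8.8 ± 0.234 TPM. Neighbours from Bnip3l to Fundc2 in this order overlapped, and so did Pgam5 and Bcl2l13. The coding Bnip3l-201 alone stood at 51.2 to 56.4 TPM in the sham libraries. Bcl2l13-203 made up 61.3% to 62.7% of the TPM of Bcl2l13 in these libraries, and Bcl2l13-201 alone stood at 8.17 to 8.65 TPM. CPM per kilobase of effective length gave the same order. It differs from these TPM only by a factor per library, so it is no second check of the order.

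The balance between the receptor group and the PINK1-linked group moved with Bnip3. The ratio of Bnip3 to Pink1 on the TPM scale was 4.12, 3.78 and 4.37 in tumour libraries 1 to 3, against 0.781, 0.689 and 1.29 in sham libraries 1 to 3. Bnip3 was thus above Pink1 in all tumour libraries, and in sham library 3 where Pink1 was low, the ratio passed 1. The ratio of Bnip3 to Bnip3l was 1.98, 2.05 and 2.05 in tumour libraries 1 to 3, against 0.814, 0.688 and 0.677 in sham libraries 1 to 3. It counts all transcripts of Bnip3l, of which the coding Bnip3l-201 held 38.6% to 39.9% in the tumour and 41.6% to 50% in the sham libraries.

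Summed over the 10 genes the level was 1275 to 1317 TPM in the tumour libraries and 752 to 756 TPM in the sham libraries, of which Bnip3 made up 39.2% to 40.4% in the tumour libraries and 10.8% to 12.2% in the sham libraries. The receptor genes without Bnip3 summed to 517 to 542 TPM in the tumour libraries and 448 to 453 TPM in the sham libraries. The PINK1-linked genes summed to 244 to 258 TPM in the tumour libraries and 214 to 227 TPM in the sham libraries. These sums describe transcripts, also those of Bnip3l without a coding sequence, and were not tested.

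**Figure D3:**
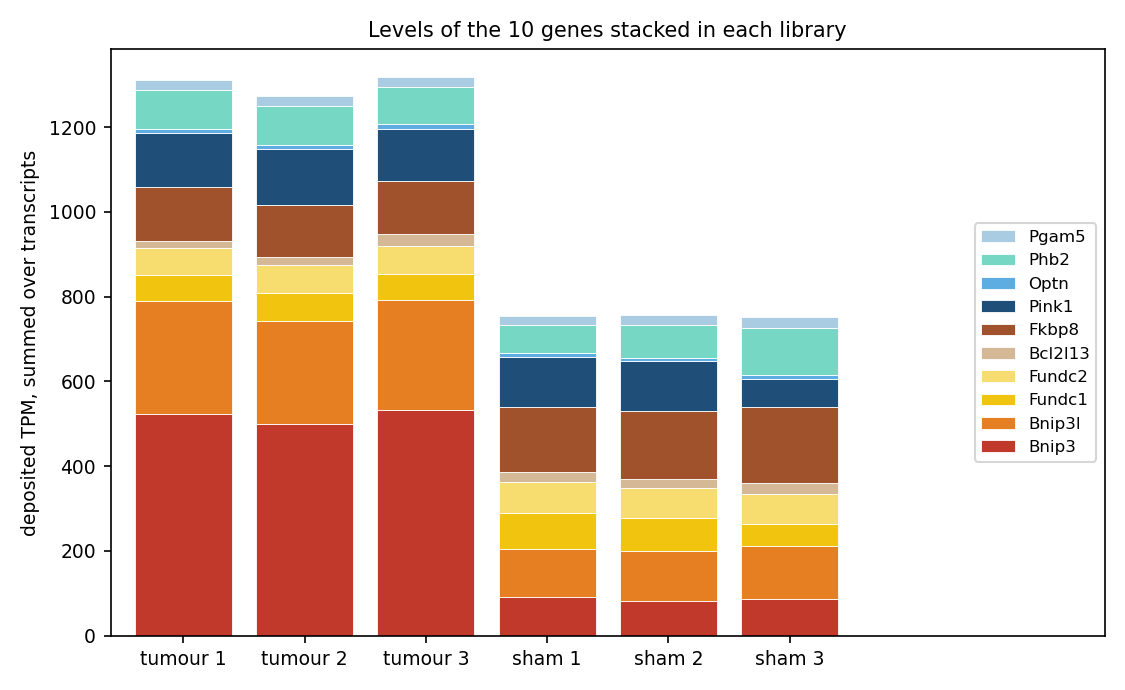
Deposited TPM of the 10 genes stacked in each library, tumour libraries left of sham libraries, in the order of the legend from bottom to top. The total was 1275 to 1317 TPM in the tumour libraries and 752 to 756 TPM in the sham libraries, and the Bnip3 segment at the base differed most.

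Genes with a profile like that of Bnip3, Bnip3l or Pink1 were sought among 10904 genes with a mean of at least 5 CPM by the root mean square difference of log2 CPM over the 6 libraries after centring each gene on its own mean. Among the genes nearest to Bnip3 were Pfkl (a phosphofructokinase of glycolysis, 0.076), Hk2 (a hexokinase, 0.129), Hpse (heparanase, 0.170) and Eno2 (an enolase, 0.171). Pfkl had 317, 297 and 310 CPM in tumour libraries 1 to 3, against 56.1, 57.5 and 54.1 CPM in sham libraries 1 to 3. Nearest to Bnip3l were Vsig10 (0.035), Jmjd6 (0.035), Alkbh5 (0.038), Cd47 (0.046) and Rhbdd1 (0.048).

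The genes nearest to Pink1 were Retreg1 (0.037), Hipk1 (0.051), Ctsf (0.051), A2m (0.066) and Gdpd1 (0.068). Retreg1, which encodes a receptor for autophagy of the endoplasmic reticulum, had 58.3, 58.4 and 57.4 CPM in tumour libraries 1 to 3, against 55.2, 56.1 and 32.1 CPM in sham libraries 1 to 3. It thus showed the same single low library as Pink1. Likeness over 6 libraries is a description.

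The wider pathway held 10 lists of other genes with 119 members, all tested, of which 15 (12.6%) were higher and 7 (5.88%) lower, beside 10.5% and 10.4% of all tested genes (edgeR adjusted p below 0.05). Their median log2 fold change was 0.01. Of these 22 calls 7 held whichever library was left out, namely Ulk1, Foxo3, Sqstm1, Gabarapl1, Atg2b, Wdr45 and Hk2. The counts were 7 to 10 higher and 0 to 5 lower without any 1 library other than sham library 3, when 536 to 850 of all genes were called higher and 355 to 758 lower, and 39 higher and 27 lower without sham library 3, when 4250 and 4179 of all genes were called.

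Among 5 genes of the LC3 and GABARAP family, which the receptors bind, 1 rose and 0 fell. That gene was Gabarapl1, with 234, 240 and 244 CPM in tumour libraries 1 to 3, against 148, 154 and 148 CPM in sham libraries 1 to 3 (log2 fold change 0.67, SE 0.06, edgeR adjusted p = 0.00166). Map1lc3b, named after its value was seen, had 215 CPM in the tumour libraries, with 218 CPM among sham libraries on average. Among 8 adaptor genes Sqstm1, which encodes p62, had 635, 642 and 642 CPM in tumour libraries 1 to 3, against 432, 432 and 436 CPM in sham libraries 1 to 3 (log2 fold change 0.56, SE 0.08, edgeR adjusted p = 0.00596). Calcoco1 also rose (0.34), a call lost without any tumour library or sham library 1, and 0 of the 8 fell.

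Of 12 genes that regulate BNIP3, NIX or FUNDC1, 2 rose and 0 fell. Ulk1, the autophagy kinase that also phosphorylates FUNDC1, had 101, 101 and 97.8 CPM in tumour libraries 1 to 3, against 71.2, 64.6 and 56.1 CPM in sham libraries 1 to 3 (log2 fold change 0.64, SE 0.09, edgeR adjusted p = 0.00651). Foxo3, a transcription factor known to drive Bnip3 in muscle, had 189, 197 and 189 CPM in tumour libraries 1 to 3, against 129, 120 and 138 CPM in sham libraries 1 to 3 (0.57, SE 0.07, edgeR adjusted p = 0.00451). Named after their values were seen, Hif1a had a log2 fold change of 0.04, and Fbxl4 and Pptc7, whose products promote the turnover of BNIP3 and NIX, had 0.13 and -0.04, with 22.7 and 49.1 CPM in the tumour libraries and 20.7 and 50.6 CPM in the sham libraries.

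Of 26 genes of autophagosome formation 5 rose and 2 fell, with a median log2 fold change of 0.09. Wdr45 (0.79, SE 0.10) and Atg2b (0.60, SE 0.07), which act in lipid transfer to the growing membrane, rose as did Ulk1, and Becn1, the gene of beclin 1, fell (-0.51, SE 0.08), a call lost without tumour library 1 or 2. Wdr45 had 35.3, 35 and 36.7 CPM in tumour libraries 1 to 3, against 20.2, 23.2 and 18.4 CPM in sham libraries 1 to 3. Becn1 had 73.3 to 76.9 CPM in the tumour libraries, with 96.1 to 114 CPM among sham libraries.

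Of 14 genes for the import and processing of PINK1, 0 rose and 1 fell, the import receptor gene Tomm22 (-0.39, SE 0.11, edgeR adjusted p = 0.0429). Of 11 genes of ubiquitin ligases, deubiquitinases and linked factors, 3 rose. These were the ligase genes Arih1 (0.48) and Mul1 (0.33), and Usp30 (0.34), whose product removes ubiquitin from mitochondria. Vcp, which encodes neither a ligase nor a deubiquitinase, fell (-0.38).

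Of 10 substrates of the PINK1 route, Hk2 (2.59) and Hk1 (0.53) rose and Rhot2 (-0.30), which encodes the mitochondrial transport protein MIRO2, fell. Tomm22, Mul1, Hk1 and Rhot2 were called in none of the fits without a tumour library or without sham library 1 or 2. The calls of Vcp, Arih1 and Usp30 were lost without tumour library 2 or 3, that of Vcp also without tumour library 1 and that of Usp30 also without sham library 2.

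Of 14 genes of mitochondrial fission and fusion 0 rose and 1 fell, the fission adaptor gene Fis1 (-0.38, SE 0.07), with 72, 72.2 and 77.9 CPM in tumour libraries 1 to 3, against 100, 91.2 and 97.1 CPM in sham libraries 1 to 3. Of 15 genes of mitochondrial biogenesis Gabpb1 rose (0.38) and Esrra, which encodes the nuclear receptor ERRα, fell (-0.52). The call of Fis1 was lost without tumour library 1 or 2, that of Esrra without tumour library 1 or 3, and that of Gabpb1 without any 1 library other than sham library 3. Of 10 other reported receptors 0 rose and 0 fell at an edgeR adjusted p below 0.05, though DESeq2 and limma-voom called 1 higher each; the most abundant, Nbr1 (220 CPM for the tumour mean and 203 CPM for the sham mean) and Mcl1, were among them, and Mcl1 had 368 to 381 CPM in the tumour libraries, with 281 to 368 CPM among sham libraries. The share of reads on genes of the mitochondrial chromosome was 4.05% to 4.23% in the tumour libraries, against 6.66%, 6.2% and 4.2% in sham libraries 1 to 3.

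Bnip3 was set beside 19 other target genes of HIF, a list chosen with their rise in these libraries already known. Of the 20, 17 rose and 0 fell, beside 10.5% and 10.4% of all tested genes. The choice of the list built this difference in. Log2 fold changes ran from 0.00 to 7.62, with a median of 2.57. Bnip3, at 2.55, is itself among the 20. The median is taken from Bnip3 and Hk2, at 2.59, the middle values of the list. Closeness of Bnip3 to the median thus only restates its middle rank in a chosen list. Ndufa4l2, a mitochondrial protein gene, had 34.1 to 36.2 CPM in the tumour libraries, with 0.125 to 0.22 CPM among sham libraries. Ero1l, an oxidase of the endoplasmic reticulum, rose by 3.16 on the log2 scale and Pdk1, a kinase that restrains pyruvate dehydrogenase, by 2.07. Bnip3l, at 0.93, lay below the smallest called change of that list, 1.01 for Kdm3a, which was named after its value was seen.

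**Figure D4:**
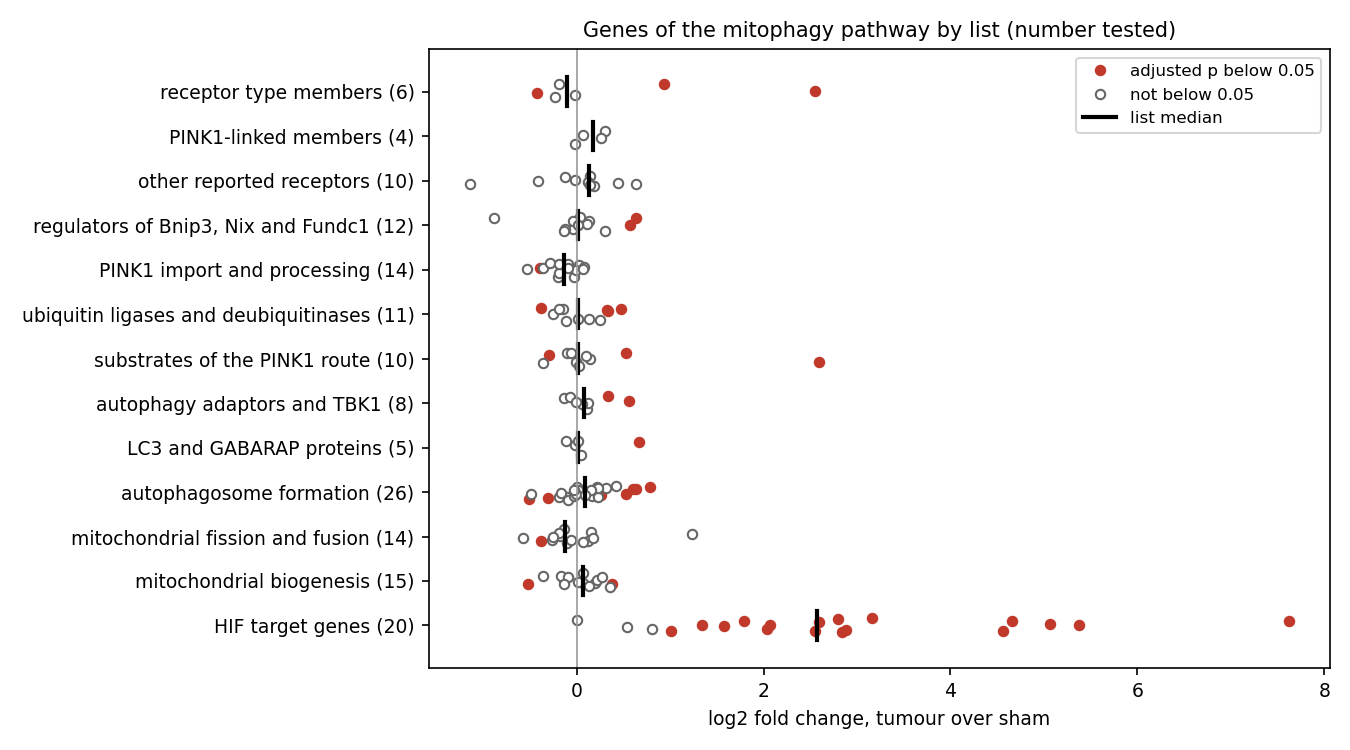
Log2 fold change, tumour over sham, of every gene in each list, with filled points where the edgeR adjusted p was below 0.05 and a bar at the list's median. The lists of the wider pathway had medians of -0.14 to 0.13. The HIF targets, a list chosen with their rise already known, had one of 2.57, so that choice built in the difference.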

How the data were processed

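The authors deposited estimated counts for each transcript, made with Salmon 0.8.2 on the mm10 build, per the submitters' processing notes, which also name DESeq2 1.28.1; the sources used here do not state library kit, strandedness or index release. TPM, lengths and effective lengths were deposited by the authors in the same tables, per the file headers.

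Of 113116 transcripts 112841 matched GENCODE M21 without version, holding at least 99.947% of reads. For each gene the estimated counts of its transcripts were added and rounded. The test was edgeR 4.0.16 (R 4.3.3) with TMM, filterByExpr (minimum count 10, minimum total 15), a robust quasi-likelihood fit of group, and Benjamini-Hochberg adjustment at 0.05. SEs were taken as |log2 fold change| over the root of the F statistic. CPM uses TMM library sizes, and log2 CPM a prior count of 2. DESeq2 1.42.0 and limma-voom (limma 3.58.1) were alternatives. The scripts were tested on simulated data. Genes outside the 10 members were named by lowest p (up to 4 called genes of each list; with none called, the 2 of highest CPM), plus the 5 nearest profiles (leaving out predicted, mitochondrial and ribosomal protein genes); others are marked. A gene named by these rules is not reported here. Members, lists and alternatives were chosen with earlier results of these data known. Replicate numbers did not pair the samples: deviations of same-numbered tumour and sham libraries correlated at 0.01, -0.02 and -0.00.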

Additional observations from a re-analysis of the deposited data

How the results depend on the processing

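Bnip3, Bnip3l and Fkbp8 kept their direction under all 16 alternatives and their call under 15, with log2 fold changes of 2.51 to 2.61, 0.87 to 1.07 and -0.45 to -0.40; the exception was the fit with near libraries summed, in which 0 members were higher and 0 lower and 0 genes were called in either direction; that fit leaves 1 tumour and 2 sham values, so it says nothing about stability. Members called lower numbered 1 to 3 with 1 library left out, and 3 without sham library 3, when Fundc1 and Fundc2 were added; members called higher were then 3, with Phb2 added. With 1 library left out the genes called higher numbered 536 to 4250 and those called lower 355 to 4179. The replicate block gave 829 higher and 607 lower genes, 2 members higher and 1 lower, and transcript length offsets gave 969 lower genes; the cause was not tested. Signs turned only in members not called in the main fit. With 1 library left out Bcl2l13 ranged from -0.06 to 0.02, Phb2 from -0.07 to 0.33 and Pgam5 from -0.08 to 0.05. Phb2, called higher without sham library 3, had -0.05 with near libraries summed. Of 352 counts of calls in the wider lists and HIF targets under alternatives, 251 stayed equal or within 1.5 times and 101 moved further, 16 of them without sham library 3. The lowest read count of a member was 354, and the effect of depth on the calls was not tested.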
